A study of Mus musculus with 34 samples.

Results

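Transcripts of microglia, the resident macrophages of the brain, were followed through ribosome pull-downs that targeted interneurons. The 10 genes are C1qa, C1qb, C1qc, Tmem119, Cx3cr1, Csf1r, P2ry12, Irf8, Inpp5d and Ctss. They were picked by symbol, as genes known from microglia and not from the targeted interneurons. All 10 were among the 53465 genes of the longest tables and among the 24371 genes of the batch 1 table, and 9 were among the 11808 genes of the batch 2 table, in which C1qa had no row.

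RNA sequencing was done on ribosome-bound messenger RNA from cortex and hippocampus of C57/BL6 mice at postnatal day 60, in 34 libraries that form 11 groups in 5 batches. Every group carried RiboTag, in which Cre recombinase switches on an HA-tagged ribosomal protein Rpl22, so that ribosomes of Cre cells can be captured through the tag. Parvalbumin (PV) interneurons were targeted with PV:Cre/Ribotag mice, and somatostatin (SST) interneurons with Sst:Cre/Ribotag mice. Batch 1 held 4 PV libraries after the GABA receptor antagonist pentylenetetrazol (PTZ), which raises network activity, and 3 after saline. Batch 2 held 3 SST libraries after PTZ, 4 SST libraries after saline and 2 PV libraries after saline. Batch 3 held PV libraries, 3 each after contextual fear conditioning (CFC, a context paired with foot shocks), from home cage mice labelled PV:Cre/Nr4a1-f/f/Ribotag (here Nr4a1 cKO, a deletion meant for the Cre cells) and from home cage mice without that allele. Batch 4 held 3 SST libraries after CFC and 3 from the home cage, and batch 5 held 3 SST libraries of Sst:Cre/Nr4a1-f/f/Ribotag mice in the home cage. Microglia carry neither driver, so their ribosomes should be untagged; the labels do not say how many animals a library holds, and input libraries were not analysed here.

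Microglia derive from yolk sac progenitors and depend on signalling through the receptor Csf1r, whose ligands Csf1 and Il34 are made by other brain cells. They survey the tissue with motile processes, sense nucleotides through P2ry12 and the neuronal ligand Cx3cl1 through Cx3cr1, and produce the complement protein C1q, which tags material and, in development, synapses for removal. Pull-downs of tagged ribosomes are known to carry some RNA of untagged cells.

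The C1q genes C1qa, C1qb and C1qc encode the chains of 1 protein. They lie side by side on the minus strand of mouse chromosome 4 within 18.7 kb (GRCm38, GENCODE annotation), with C1qa at chr4:136895917-136898803, C1qc at chr4:136889804-136893065 and C1qb at chr4:136880129-136886187. Csf1r, Cx3cr1 and P2ry12 are surface receptors and Tmem119 is a membrane protein widely used as a microglia marker. Irf8 is a transcription factor that partners with the myeloid factor PU.1 (encoded by Spi1), Inpp5d encodes the lipid phosphatase SHIP1, and Ctss encodes the lysosomal protease cathepsin S.

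Upstream sequence was at hand in RefSeq (GRCm38.p6) for the 250 bases before the start of 7 of the members, in 8 windows, since Irf8 had 2. C1qa and Tmem119 had no entry, and the window of Csf1r was not analysed here. Of the windows, 5 are printed, each 5′ to 3′ on the gene's own strand: the neighbours C1qb and C1qc, Ctss, which varied most closely with the other members over the libraries, Inpp5d, which varied least closely with them, and Cx3cr1 as a window without a match. Capitals mark GAGGAA, a core of the sites that PU.1 binds, or its reverse complement. C1qb lies at chr4:136886201-136886450, C1qc at chr4:136892915-136893164, Ctss at chr3:95526536-95526785, Inpp5d at chr1:87620062-87620311 and Cx3cr1 at chr9:120068297-120068546.
C1qb: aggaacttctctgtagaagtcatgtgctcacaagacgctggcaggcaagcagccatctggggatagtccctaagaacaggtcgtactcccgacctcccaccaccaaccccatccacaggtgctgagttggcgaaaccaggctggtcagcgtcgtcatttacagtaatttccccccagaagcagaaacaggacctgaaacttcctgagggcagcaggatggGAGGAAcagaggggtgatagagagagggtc
C1qc: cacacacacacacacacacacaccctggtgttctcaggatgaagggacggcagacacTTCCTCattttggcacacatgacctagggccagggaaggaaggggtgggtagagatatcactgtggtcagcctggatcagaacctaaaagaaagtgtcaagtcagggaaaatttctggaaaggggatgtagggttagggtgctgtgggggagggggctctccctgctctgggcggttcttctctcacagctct
Ctss: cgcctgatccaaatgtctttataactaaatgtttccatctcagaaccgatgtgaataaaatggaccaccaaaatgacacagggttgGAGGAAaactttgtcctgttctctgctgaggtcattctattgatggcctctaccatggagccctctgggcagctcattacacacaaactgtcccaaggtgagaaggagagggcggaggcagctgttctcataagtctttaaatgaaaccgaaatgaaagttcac
Inpp5d: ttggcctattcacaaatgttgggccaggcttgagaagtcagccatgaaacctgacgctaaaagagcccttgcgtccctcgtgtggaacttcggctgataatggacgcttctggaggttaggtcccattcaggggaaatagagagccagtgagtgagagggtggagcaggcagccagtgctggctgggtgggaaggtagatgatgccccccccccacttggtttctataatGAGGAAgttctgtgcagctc
Cx3cr1: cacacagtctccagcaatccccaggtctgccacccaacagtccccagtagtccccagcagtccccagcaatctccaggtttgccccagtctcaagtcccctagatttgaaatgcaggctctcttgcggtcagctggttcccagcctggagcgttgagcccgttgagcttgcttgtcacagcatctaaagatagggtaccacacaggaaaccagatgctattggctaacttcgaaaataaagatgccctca
GAGGAA stood in 4 of the 8 windows on either strand, and 23.3% of all 32851 windows of this length held it. A longer composite motif for factors of the PU.1 and Irf families (ETS-IRF), searched on both strands, stood in 0 of the 8 windows and in 2.3% of all windows. A match is a run of letters and was not tested as a binding site.

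Library totals ran from 4933110 to 27282912 counts, with the lowest pair in the PV saline libraries of batch 2. The Cre lines followed their labels within batch 2, where Sst had 1746 to 3398 CPM (counts scaled to the size of the library) in SST saline libraries, against 68.0 and 54.3 CPM in PV saline libraries. In SST saline against PV saline libraries, 11 of 15 SST markers rose and 2 fell, and 13 of 16 PV markers fell and 2 rose, at adjusted p under 0.05 (edgeR quasi-likelihood test), where 26% of all genes rose and 27.1% fell. Lhx6, Sox6, Gad1, Gad2 and Slc32a1 stand in both lists and mark neither line alone. The activity gene Fos had 94.5 to 171 CPM after PTZ in batch 1, against 3.19 to 16.3 CPM after saline. The target Nr4a1 did not separate the cKO label. It had 6.68, 16.5 and 7.65 CPM in the PV libraries labelled Nr4a1 cKO, against 5.07, 7.43 and 11.7 CPM in PV home cage libraries, so the genotype is given below as labelled.

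The microglia transcripts made up between 0.00185% and 0.0462% of all counts of a library. Of 331 values of a member in a library, 4 were at 0 counts and 6 rested on 1 to 3 counts, and a value of 0 allows up to 3 counts. In a bulk pull-down, fewer microglia, less RNA per microglia and less RNA carried over from untagged cells cannot be told apart. CPM were scaled within each batch (TMM scaling), and each batch is a separate table, so levels are compared by test within a batch, and levels set side by side across batches also hold the difference between tables.

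**Figure D1:**
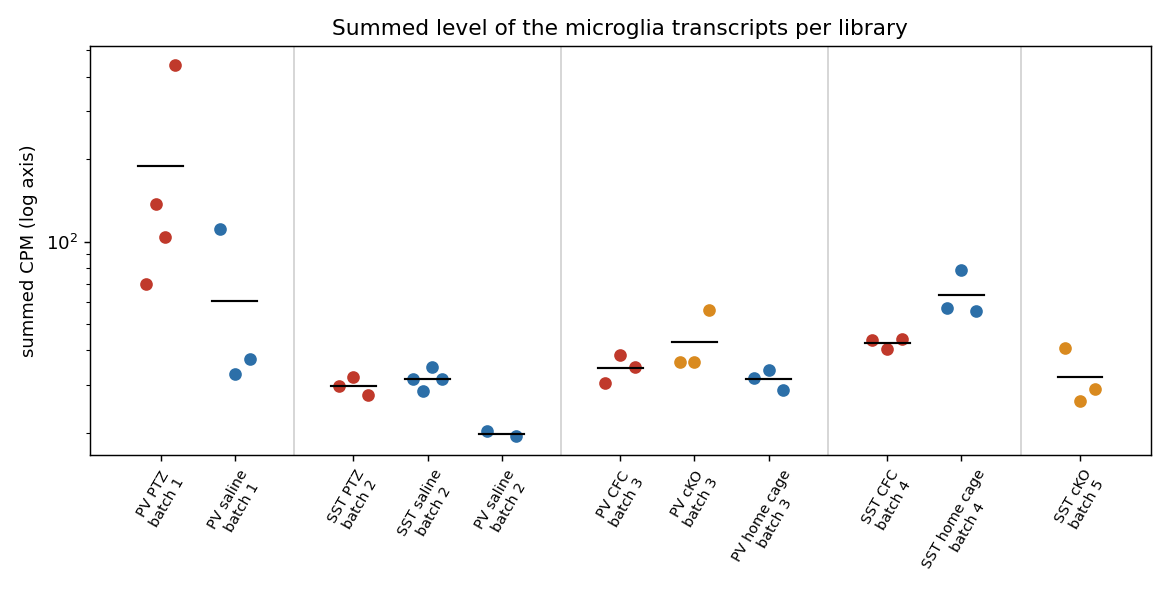
Summed CPM of the microglia transcripts in each library (points, log axis) and the mean of each group (lines), by batch; sums in batch 2 hold 9 genes and all others 10. PV PTZ replicate 4 stands at 443 CPM, above every other library, and the SST CFC libraries all lie below the SST home cage libraries.

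The first question was whether microglia transcripts differed after PTZ in PV libraries. Their summed level was 70.2, 137, 103 and 443 CPM in PTZ replicates 1 to 4, against 111, 32.7 and 37.2 CPM in saline replicates 1, 3 and 4 (188.5 ± 172 and 60.4 ± 44.2 CPM, SD, n = 4 and 3). All 10 members had positive log2 fold changes, with a median of 1.84 and a range of 1.19 to 2.23, while the median of all 13597 genes tested was -0.01 and 49.1% of them were positive. None of the 10 passed the test at adjusted p under 0.05 (edgeR), a call that 0.0294% of all genes reached. At unadjusted p under 0.05 the count was 6 of 10 members, against 13.8% of all genes, and DESeq2 called 1 member, Inpp5d, and 1.6% of the genes it tested. C1qa, at the top of that range and 1 of those 6, had 34 counts over the saline libraries. It passed the filter on low counts through the PTZ libraries.

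The libraries within each group differed widely. Replicate 4 was the highest PTZ library for 10 of 10 members, and replicate 1 was the highest saline library for 9 of 10. Saline replicate 1 exceeded the lowest PTZ library for 8 of 10 members. Every PTZ library exceeded saline replicates 3 and 4 for 8 of 10 members, with Cx3cr1 and P2ry12 as the exceptions.

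**Figure D2:**
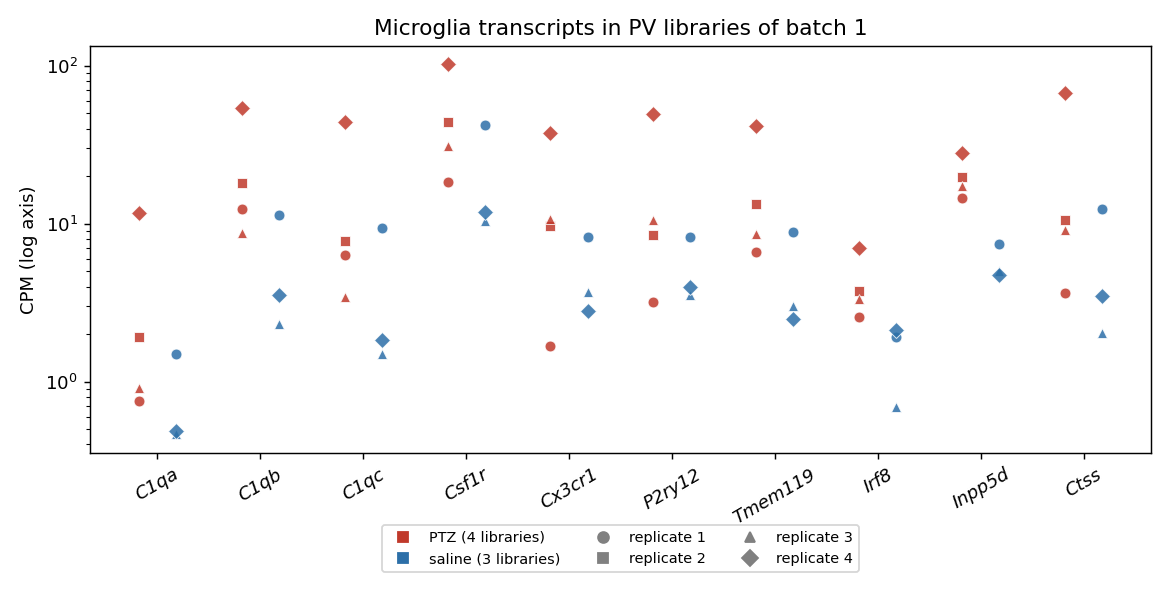
CPM of each microglia transcript (log axis) in the PTZ libraries (red, left) and saline libraries (blue, right) of batch 1, with a symbol for each replicate number. Replicate 4 (diamonds) is the highest PTZ point for every member, and the groups are apart only for Irf8 and Inpp5d.

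Of the C1q chains, each in the same protein, C1qb had the highest mean level per kb of exon in both groups. C1qa had 0.751, 1.92, 0.909 and 11.6 CPM after PTZ, against 1.5, 0.463 and 0.487 CPM after saline. C1qb had 12.4, 18.1, 8.73 and 53.8 CPM after PTZ, against 11.3, 2.32 and 3.53 CPM after saline. C1qc had 6.34, 7.75, 3.45 and 44.4 CPM after PTZ, against 9.44, 1.51 and 1.82 CPM after saline. For each chain the groups overlapped, because saline replicate 1 lay within the PTZ range. Log2 fold changes were 2.04 ± 0.70 and 1.88 ± 0.92 (SE) for C1qb and C1qc, with adjusted p of 0.308 and 0.376 (edgeR). C1qa had 18, 8 and 8 counts in saline replicates 1, 3 and 4. It passed the filter on low counts through the PTZ libraries, so its difference is given without a test.

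The receptors gave the same picture of 1 high library in each group. Csf1r, the receptor for Csf1 and Il34, had 18.3, 43.8, 30.8 and 102 CPM after PTZ, against 41.9, 10.4 and 11.8 CPM after saline. Its log2 fold change was 1.19 ± 0.62 (adjusted p = 0.39, edgeR), the smallest of the members. Cx3cr1, the fractalkine receptor, had 1.69, 9.61, 10.8 and 37.8 CPM after PTZ, against 8.27, 3.71 and 2.80 CPM after saline. P2ry12, the nucleotide receptor, had 3.19, 8.54, 10.5 and 49.3 CPM after PTZ, against 8.27, 3.53 and 3.95 CPM after saline. For both of these the lowest value of the batch was in PTZ replicate 1, and adjusted p was 0.38 and 0.359 (edgeR). Tmem119 had 6.67, 13.4, 8.55 and 41.5 CPM after PTZ, against 8.86, 3.01 and 2.49 CPM after saline, a log2 fold change of 1.88 ± 0.68 (adjusted p = 0.323, edgeR).

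Irf8 and Inpp5d were the members whose groups did not overlap, 2 of 10, while 7.56% of all genes had every PTZ library above every saline library. Inpp5d had 14.6, 19.9, 17.3 and 28.1 CPM after PTZ, against 7.44, 4.98 and 4.74 CPM after saline. Its standard error was the smallest of the members, and its log2 fold change of 1.81 ± 0.30 reached adjusted p = 0.159 with edgeR and 1.27e-05 with DESeq2. Irf8 had 2.58, 3.73, 3.33 and 7.05 CPM after PTZ, against 1.92, 0.695 and 2.13 CPM after saline, a log2 fold change of 1.40 ± 0.50 (adjusted p = 0.323, edgeR). Ctss, the cathepsin, had 3.66, 10.6, 9.09 and 67.5 CPM after PTZ, against 12.5, 2.03 and 3.47 CPM after saline, and its log2 fold change of 1.94 ± 0.95 had adjusted p = 0.376 (edgeR).

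The size of the difference rested on PTZ replicate 4, and the sign did not. Without that library the median log2 fold change of the members was 0.58, with members between 0.40 and 1.60, and without saline replicate 1 it was 2.45. All 10 members were positive in each of the 7 fits that left out 1 library. Without both PTZ replicate 4 and saline replicate 1, a choice made after seeing the data, the median was 1.46 and edgeR called 0 of 10 members. Inpp5d moved least among these fits, between 1.60 and 2.03, with adjusted p between 0.0572 and 0.707.

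Other genes known from microglia lay in the same direction in PV PTZ libraries. Of 21 further microglia markers tested, 20 were positive with a median of 1.58. EdgeR called 0 of them at adjusted p under 0.05, 7 had an unadjusted p under 0.05 and DESeq2 called 1. Ly86, a partner of a toll-like receptor, had 2.63, 3.68, 4.36 and 14.7 CPM after PTZ, against 2.09, 1.27 and 1.09 CPM after saline. Itgb2, an integrin chain of leukocytes, had 1.46, 4.98, 2.24 and 3.35 CPM after PTZ, against 1.42, 0.406 and 0.243 CPM after saline. It passed the filter on low counts through the PTZ libraries, so its difference is given without a test. Of the myeloid transcription factors, 6 of 8 were positive with a median of 1.10; edgeR called 0, 4 had an unadjusted p under 0.05 and DESeq2 called 0. Spi1 had 1.93, 2.32, 0.606 and 5.63 CPM after PTZ, against 0.752, 0.348 and 0.487 CPM after saline. Like Itgb2, Spi1 passed the filter through the PTZ libraries and is given without a test, and the counts of their lists include both. Runx1 had a log2 fold change of 1.39 ± 0.46 (adjusted p = 0.305, edgeR).

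The partners of the members did not follow a single direction. Complement genes beyond C1q were positive in 8 of 8 tested, with a median of 0.89; edgeR and DESeq2 called 0, and 0 had an unadjusted p under 0.05. Cd55, an inhibitor of complement, had the smallest p of them at a log2 fold change of 0.89 ± 0.42 (adjusted p = 0.369, edgeR). Among the ligands, Csf1 was positive at 0.59 ± 0.38, Il34 was negative at -0.23 ± 0.30 and Cx3cl1, the fractalkine made by neurons, was negative at -0.72 ± 0.39 on the log2 scale, with 0 of 3 called by edgeR or DESeq2 and 0 at unadjusted p under 0.05. Of 22 genes linked to microglial activation, 10 passed the filter on low counts, and no share of them is read. Il1a, an inflammatory cytokine, had 0.657, 1.58, 3.21 and 2.78 CPM after PTZ, against 0.167, 0 and 0.0608 CPM after saline. Its saline values rest on 3 counts in all, so that it passed the filter through the PTZ libraries, and its difference is given without a test. Lpl, a lipase, was negative at -0.86 ± 0.36 (adjusted p = 0.346, edgeR).

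Markers of other cells were set beside the microglia transcripts in batch 1, and their part in the result was not tested. Positive log2 fold changes stood at 15 of 16 astrocyte markers (median 0.41), 19 of 20 oligodendrocyte lineage markers (median 0.50), 17 of 19 vascular and mural markers (median 0.89) and 12 of 13 excitatory neuron markers (median 0.60). EdgeR called 0 in each of these lists; at unadjusted p under 0.05 the counts were 1, 2, 6 and 1 in that order of lists, and DESeq2 called 0, 1, 3 and 0. Among PV interneuron markers 1 of 16 was positive (median -0.48), with 0 called by edgeR and 8 at unadjusted p under 0.05. DESeq2 called 1 of them higher and 0 lower. Summed astrocyte markers were 2850 to 4570 CPM after PTZ, against 6388, 1587 and 1749 CPM in saline replicates 1, 3 and 4. Summed excitatory neuron markers were 1988 to 2805 CPM after PTZ, against 3180, 1390 and 1407 CPM in those saline replicates. Summed border macrophage markers were 10.3 to 31.6 CPM after PTZ, against 4.01 to 8.36 CPM after saline. Up to 4 of these 10 genes were at 0 in a PTZ library and up to 7 in a saline library, and 5 of 10 passed the filter. Summed vascular and mural markers ran against the count of their genes, at 211.5 to 387 CPM after PTZ, against 335 to 504.8 CPM after saline. Summed blood cell markers were 0.667 to 2.30 CPM after PTZ, against 0.579 to 1.84 CPM after saline.

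**Figure D3:**
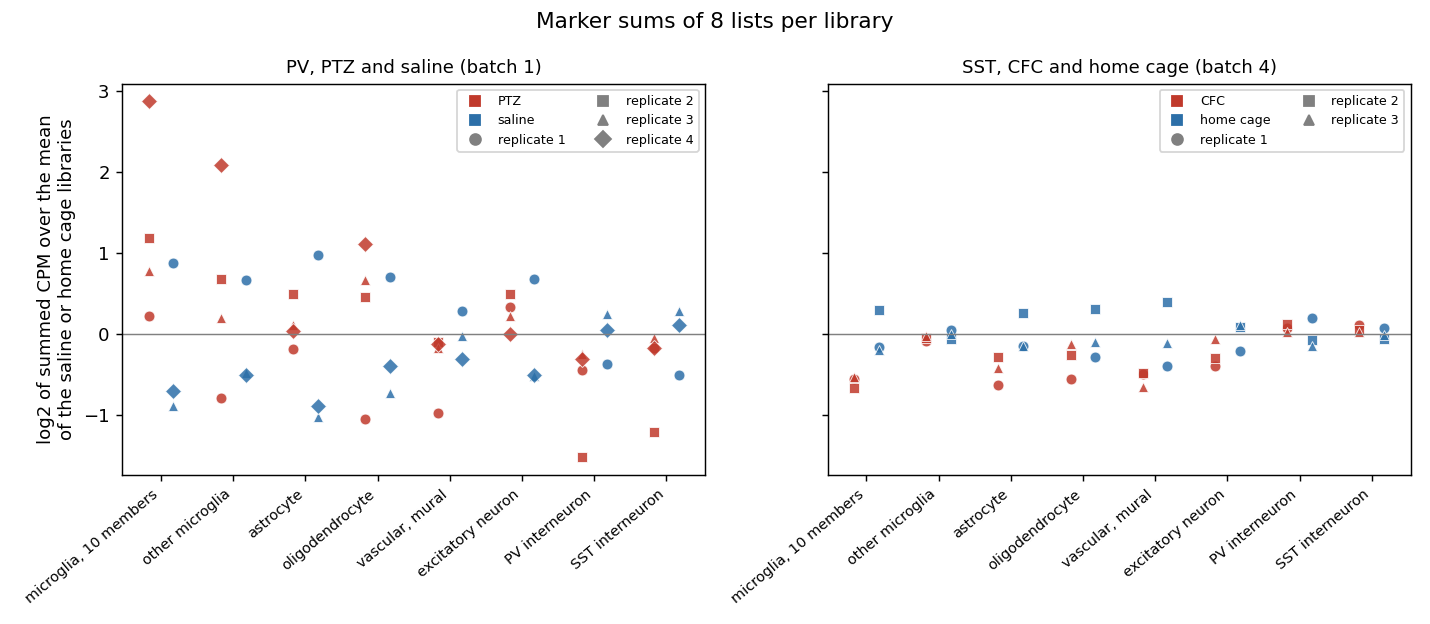
Summed CPM of 8 marker lists per library, as log2 over the mean of the saline libraries (batch 1, left) or home cage libraries (batch 4, right), with PTZ and CFC in red, left of their controls in blue. In batch 1 PTZ replicate 4 is the highest library for both microglia lists and for oligodendrocyte markers, while saline replicate 1 is the highest for astrocyte, vascular and excitatory neuron markers.

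In SST libraries PTZ left no such pattern. The summed level of the 9 members listed was 29.6, 31.9 and 27.5 CPM after PTZ, against 31.5, 28.4, 34.7 and 31.4 CPM after saline, and the groups overlapped. Log2 fold changes were positive for 4 members and negative for 5, with a median of -0.06, against -0.01 over all 11784 genes. EdgeR called 0 of 9 members and 0.144% of all genes. An unadjusted p under 0.05 stood at 1 member and 4.34% of all genes, and DESeq2 called 0 members and 0.322% of genes. Irf8 was that member, with 0.564, 0.578 and 0.329 CPM after PTZ, against 1.03, 0.993, 1.48 and 0.905 CPM after saline. Its groups did not overlap, with PTZ lower, as for 5.84% of all genes. Its PTZ values rest on 10, 10 and 6 counts, and it passed the filter on low counts through the saline libraries. Its difference is therefore given without a test, and the counts of members above include it. Fos served as a check of these libraries and rose by 3.77 ± 0.37 on the log2 scale (adjusted p = 0.000446, edgeR).

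The remaining members in SST PTZ libraries stayed close to saline. Csf1r had 9.36, 11 and 9.61 CPM after PTZ, against 11.2, 10.9, 13.5 and 12.8 CPM after saline. C1qb had 3.95, 2.89 and 2.85 CPM after PTZ, against 3.02, 1.68, 2.59 and 2.5 CPM after saline. Ctss had 2.31, 2.49 and 1.92 CPM after PTZ, against 5.08, 2.17, 2.37 and 4.15 CPM after saline. Each of these overlapped between groups, and their log2 fold changes were -0.27 ± 0.18, 0.40 ± 0.42 and -0.62 ± 0.43 for Csf1r, C1qb and Ctss. The other 5 members lay between -0.07 and 0.49.

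The PTZ response of the PV libraries minus that of the SST libraries was tested directly over 11743 genes, which stood in both tables and passed the filter on low counts. It was positive for 9 of 9 members with a median of 1.71, against 0.04 over all genes, and edgeR called 0 of 9 members and 0% of all genes. At unadjusted p under 0.05 the counts were 4 of 9 members and 5.13% of all genes, and DESeq2 called 0 members and 0.00851% of genes. Ctss had a difference of 2.61 ± 1.14 and Irf8 one of 2.59 ± 0.69, each with adjusted p = 0.82 (edgeR). Batch and Cre line coincide in this contrast and cannot be told apart, and without PV PTZ replicate 4 the median was 0.86.

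Within batch 2 the Cre lines could be compared after saline. Summed levels were 31.5, 28.4, 34.7 and 31.4 CPM in SST saline libraries, against 20.3 and 19.5 CPM in PV saline libraries, without overlap. Of the 9 members, 3 rose and 1 fell in SST against PV libraries at adjusted p under 0.05 (edgeR), in a comparison that called 53.1% of all genes, 26% higher and 27.1% lower. The members' own count, 4 of 9, is near that share. Non-overlapping groups were higher for 4 members and lower for 1, against 30.7% and 28.5% of all genes. Of 15 further microglia markers tested, 9 were positive with a median of 0.07, and edgeR called 4 higher and 0 lower. Their summed level of 105, 98.5, 103 and 101 CPM in SST libraries overlapped 102 and 79.3 CPM in PV libraries. Up to 6 of them were at 0 counts in a PV library. Of 4 myeloid transcription factors tested, 2 were positive, and edgeR called 0 higher and 2 lower.

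Csf1r had 11.2, 10.9, 13.5 and 12.8 CPM in SST libraries, against 6.50 and 5.77 CPM in PV libraries, and rose by 0.97 ± 0.24 on the log2 scale (adjusted p = 0.00442, edgeR). Tmem119 had 2.06, 2.17, 3.11 and 2.45 CPM in SST libraries, against 1.36 and 0.214 CPM in PV libraries, a rise of 1.51 ± 0.58 (adjusted p = 0.0438, edgeR). Its PV values rest on 9 counts and 1 count. Irf8 had 1.03, 0.993, 1.48 and 0.905 CPM in SST libraries and 0 counts in both PV libraries. Against a floor of 3 counts over the PV group, 0.266 CPM, Irf8 was at least 4.15-fold higher in SST libraries. It passed the filter on low counts through the SST saline libraries, so its difference is given without a test. The counts of called and non-overlapping members include it. C1qc went the other way, with 1.39, 1.49, 1.11 and 1.65 CPM in SST libraries, against 2.57 and 3.85 CPM in PV libraries, and fell by 1.16 ± 0.40 (adjusted p = 0.0289, edgeR).

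These calls rest on 2 shallow PV libraries of 6161764 and 4933110 counts. With each library left out in turn, Csf1r had adjusted p of at most 0.0129 (edgeR). Tmem119 lost its call without any 1 of the SST libraries and without PV replicate 2 (adjusted p up to 0.194), and C1qc lost it without SST replicate 2 or 3 or PV replicate 2 (adjusted p up to 0.159). With the compared groups alone in the fit, both lost their calls (adjusted p = 0.0862 for Tmem119 and 0.0682 for C1qc, edgeR). The 2 PV libraries also differed between themselves: Inpp5d had 0.302 CPM (2 counts) and 5.13 CPM, C1qb 3.02 CPM and 0.428 CPM (2 counts), and Cx3cr1 1.66 CPM and 0 counts. Vascular and mural markers were positive in 11 of 14 and astrocyte markers in 7 of 15, with 7 and 5 called in either direction, and their part in the result was not tested.

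**Figure D4:**
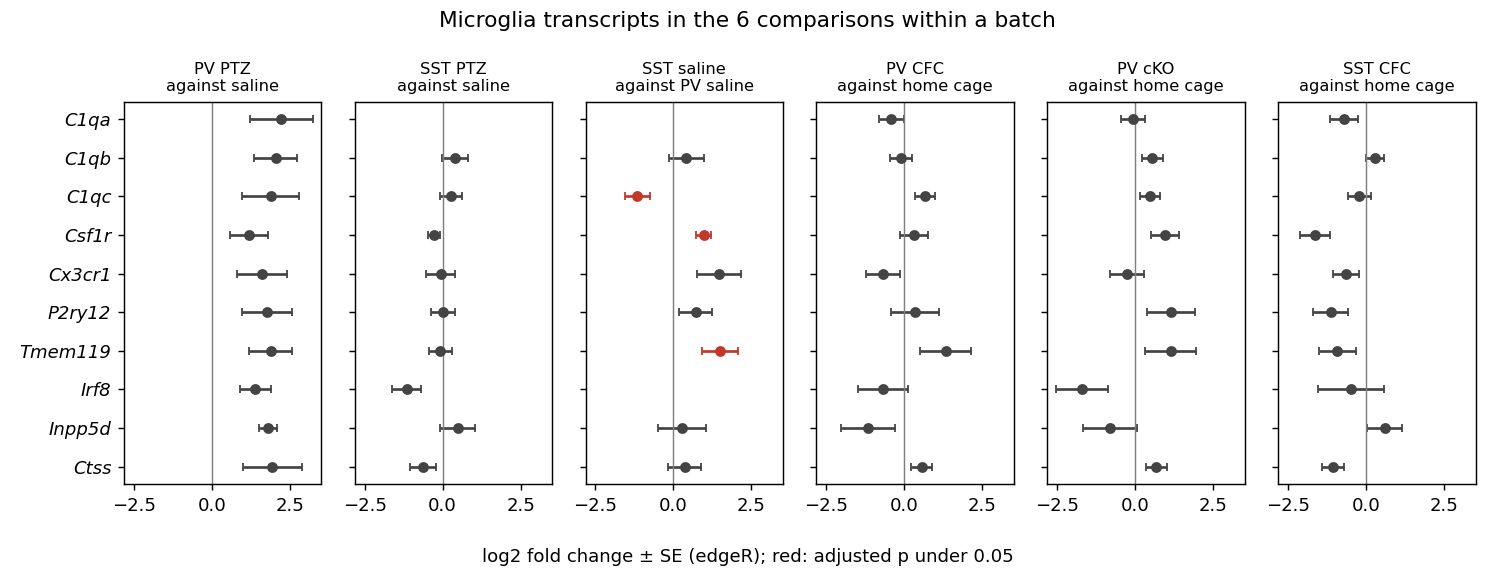
Log2 fold change and standard error of each microglia transcript in the 6 comparisons within a batch, with red points at adjusted p under 0.05 (edgeR). All points lie right of 0 for PV PTZ against saline, and 8 of 10 lie left of 0 for SST CFC against home cage; C1qa is not listed in batch 2, and Irf8 is left out of the SST saline panel because both PV libraries were at 0.

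In batch 3, fear conditioning and the Nr4a1 cKO label were each set against the same 3 PV home cage libraries, so the 2 comparisons share them. Summed levels were 30.3, 38.5 and 34.9 CPM after CFC and 36.4, 36.4 and 56.0 CPM in libraries labelled Nr4a1 cKO, against 31.7, 34 and 28.7 CPM in the home cage. After CFC 5 members were positive and 5 negative, with a median of 0.11 against 0.02 over all 15145 genes. EdgeR called 0 of 10 members and 0% of all genes; 0 members and 18.7% of all genes had an unadjusted p under 0.05, and DESeq2 called 8.59% of the genes it gave an adjusted p, which held no member. In libraries labelled Nr4a1 cKO 6 members were positive and 4 negative, with a median of 0.53 against 0.04 over all genes. EdgeR called 0 of 10 members and 0.139% of all genes there. An unadjusted p under 0.05 stood at 0 members and 17.8% of all genes, and DESeq2 called 0 members and 5.01% of genes.

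Single members of batch 3 separated by small margins. After CFC, Ctss had 6.56, 6.35 and 6.73 CPM, against 4.87, 5.16 and 3.17 CPM in the home cage, and C1qc had 6.24, 5.20 and 5.53 CPM, against 3.66, 4.13 and 2.73 CPM. Both were higher without overlap, while C1qa was lower without overlap, at 1.82, 2.58 and 3.05 CPM after CFC, against 3.31, 3.10 and 3.49 CPM in the home cage. Across all genes 13.6% were higher and 11.4% lower without overlap. The adjusted p of these 3 members was 0.389, 0.273 and 0.593 for Ctss, C1qc and C1qa (edgeR).

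With the Nr4a1 cKO label the non-overlapping members were C1qc, higher as 9.38% of all genes, and Irf8, lower as 9.02% of all genes. C1qc had 4.41, 4.32 and 6.19 CPM under the cKO label, against 3.66, 4.13 and 2.73 CPM in the home cage (log2 fold change 0.49 ± 0.32, adjusted p = 0.426, edgeR). Irf8 had 0.0699, 0.623 and 0.641 CPM under the cKO label, against 0.731, 1.58 and 2.07 CPM in the home cage (log2 fold change -1.70 ± 0.82, adjusted p = 0.297, edgeR), and the first of these values is 2 counts. Csf1r had 4.69, 5.32 and 9.80 CPM under the cKO label, against 5.36, 1.79 and 2.95 CPM in the home cage, with adjusted p = 0.284 (edgeR). Replicate 3 of the cKO label was the highest of the batch in summed members, astrocyte markers (1233 CPM, against 860 to 988 CPM in the home cage) and vascular and mural markers (2175 CPM, against 1570 to 1799 CPM in the home cage). Oligodendrocyte lineage markers were positive in 18 of 20 with a median of 0.80 (0 called by edgeR, 8 at unadjusted p under 0.05, 3 called by DESeq2). Vascular and mural markers were positive in 15 of 20 with a median of 0.95 (0 called by edgeR or DESeq2, 9 at unadjusted p under 0.05). Astrocyte markers were positive in 14 of 16 with a median of 0.40 (0 called by edgeR, 4 at unadjusted p under 0.05, 1 called by DESeq2), and the part of these cells in the result was not tested. At 10096035 counts, home cage replicate 3 had the lowest total of the batch. It had 0 counts of Tmem119 and the highest Cx3cr1 level of the batch, at 8.08 CPM.

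In SST libraries of batch 4 the microglia transcripts lay lower after CFC. Summed levels were 43.5, 40.4 and 44.2 CPM after CFC, against 57.1, 78.7 and 55.9 CPM in the home cage (42.7 ± 2.01 and 63.9 ± 12.8 CPM, SD, n = 3 each), without overlap. Log2 fold changes were negative for 8 of 10 members, with a median of -0.66, while 49.4% of all 14608 genes tested were positive. Irf8, 1 of these 8, had 15, 20 and 1 counts after CFC and passed the filter on low counts through the home cage libraries. EdgeR called 0 of 10 members and 0.0411% of all genes. An unadjusted p under 0.05 stood at 2 members and 5.57% of all genes, and DESeq2 called 0 members and 0.608% of genes. The groups did not overlap for 3 members that were lower and 1 that was higher, against 5.81% and 4.81% of all genes.

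Csf1r had 7.10, 3.44 and 3.06 CPM after CFC, against 8.34, 22.2 and 11.7 CPM in the home cage. This is a log2 fold change of -1.63 ± 0.48, with adjusted p = 0.658 (edgeR) and 0.0901 (DESeq2). Ctss had 3.46, 6.42 and 6.17 CPM after CFC, against 11.7, 13.3 and 8.50 CPM in the home cage (-1.06 ± 0.36, adjusted p = 0.799, edgeR). P2ry12 had 1.76, 1.23 and 1.40 CPM after CFC, against 3.28, 4.16 and 2.16 CPM in the home cage (-1.12 ± 0.57, adjusted p = 0.934, edgeR). These were the lower members without overlap, and home cage replicate 2 was the highest library for each of them. Inpp5d ran against them, with 2.46, 2.98 and 2.20 CPM after CFC, against 1.95, 1.54 and 1.52 CPM in the home cage (0.60 ± 0.56, adjusted p = 0.997, edgeR). C1qb overlapped, with 14.3, 9.46 and 14.3 CPM after CFC, against 13.2, 9.56 and 8.25 CPM in the home cage.

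Of the further microglia markers tested in batch 4, 12 of 19 were negative, with a median of -0.15; edgeR and DESeq2 called 0, and 1 had an unadjusted p under 0.05. Their summed level of 256, 264 and 268 CPM after CFC overlapped 282.5, 262 and 273 CPM in the home cage. Of the complement genes beyond C1q 5 of 10 passed the filter, and of the activation genes 8 of 22; edgeR and DESeq2 called 0 in each list, and 0 and 2 genes had an unadjusted p under 0.05. Among ligands Csf1 was at 0.25 ± 0.37, Il34 at -0.11 ± 0.16 and Cx3cl1 at -0.07 ± 0.08 (0 of 3 called by edgeR or DESeq2, 0 at unadjusted p under 0.05). Vascular and mural markers were negative in 20 of 20 with a median of -2.41; 17 had an unadjusted p under 0.05, DESeq2 called 5 lower, and 11 were lower without overlap. EdgeR called 1 of them, Acta2, the actin of smooth muscle (-4.17 ± 0.50, adjusted p = 0.0439, edgeR). Astrocyte markers were negative in 15 of 16 (median -0.54; 0 called by edgeR, 4 at unadjusted p under 0.05, 1 called by DESeq2), at sums of 533, 675 and 616 CPM after CFC, against 744, 989 and 742 CPM in the home cage. Oligodendrocyte lineage markers were negative in 18 of 20 (median -0.24) and excitatory neuron markers in 10 of 13 (median -0.30), with 0 called in each by edgeR or DESeq2 and 2 in each at unadjusted p under 0.05. The part of these cells in the result was not tested.

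The CFC response of SST libraries minus that of PV libraries had a median of -0.53 over the 10 members, against -0.01 over 16074 genes. EdgeR called 0 of 10 members and 0% of all genes, and 2 members and 15.2% of all genes had an unadjusted p under 0.05. DESeq2 called 3.73% of the genes it gave an adjusted p, which held no member. Ctss had a difference of -1.56 ± 0.49 and Csf1r one of -1.88 ± 0.67, with adjusted p of 0.21 and 0.22 (edgeR). Batch and Cre line coincide here too and cannot be told apart.

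SST libraries labelled Nr4a1 cKO stand alone in batch 5, so their levels are given without a test. Summed members were 41.0, 26.2 and 29.0 CPM. Csf1r had 7.83, 6.18 and 6.71 CPM and C1qb had 6.67, 3.41 and 4.83 CPM. Replicate 1 was the highest library for 10 of 10 members, with Inpp5d at 6.05 CPM there and at 1.60 and 1.76 CPM in the other two. Summed vascular and mural markers were 3855, 1018 and 1045 CPM and summed astrocyte markers 695, 475 and 480 CPM, so that replicate 1 was also the highest for those lists; their part in the levels was not tested.

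Relative levels of the members were compared as CPM per kb of exon length (union of GENCODE exons, GRCm38), a scale that sets genes of different length side by side. C1qb ranked 1 to 3 among the members in the 11 groups and Ctss also 1 to 3, while Irf8 ranked 9 or 10. In PV PTZ libraries C1qb averaged 21.4 ± 19.1 CPM per kb and Irf8 0.59 ± 0.28 CPM per kb (SD, n = 4). In SST home cage libraries C1qb averaged 9.51 ± 2.37 and Ctss 8.22 ± 1.80 CPM per kb (SD, n = 3), which did not differ beyond their spread. The order at the top changed in SST saline libraries of batch 2, where Ctss averaged 2.54 ± 1.04 and C1qb 2.25 ± 0.52 CPM per kb (SD, n = 4), again within their spread. It also changed in PV saline libraries of batch 2, where Ctss averaged 1.90 ± 1.57, C1qc 1.66 ± 0.47 and C1qb 1.59 ± 1.69 CPM per kb (SD, n = 2), within their spread. In SST PTZ libraries Csf1r averaged 1.73 ± 0.16 CPM per kb and Ctss 1.65 ± 0.21 CPM per kb (SD, n = 3), both below C1qb and within the spread of each other.

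The makeup of the microglia transcripts differed between batches. Csf1r CPM divided by the sum of C1qb and C1qc CPM was 0.975 to 2.53 in PV PTZ and 2.02 to 2.73 in PV saline libraries of batch 1. In batch 2 it was 1.64 to 2.30 in SST PTZ, 2.55 to 3.66 in SST saline and 1.16 to 1.35 in PV saline libraries. It was 0.113 to 0.545 across the 9 libraries of batch 3, and 0.135 to 0.376 after CFC, against 0.449 to 1.28 in the home cage, in batch 4. SST libraries labelled Nr4a1 cKO had 0.733 to 0.942. Within a batch the ratio was lower without overlap in SST PTZ than in SST saline libraries and in SST CFC than in SST home cage libraries, and it was higher without overlap in SST saline than in PV saline libraries. These gaps were picked after seeing the values and got no test, and the difference between batches cannot be told apart from the difference between their tables.

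**Figure D5:**
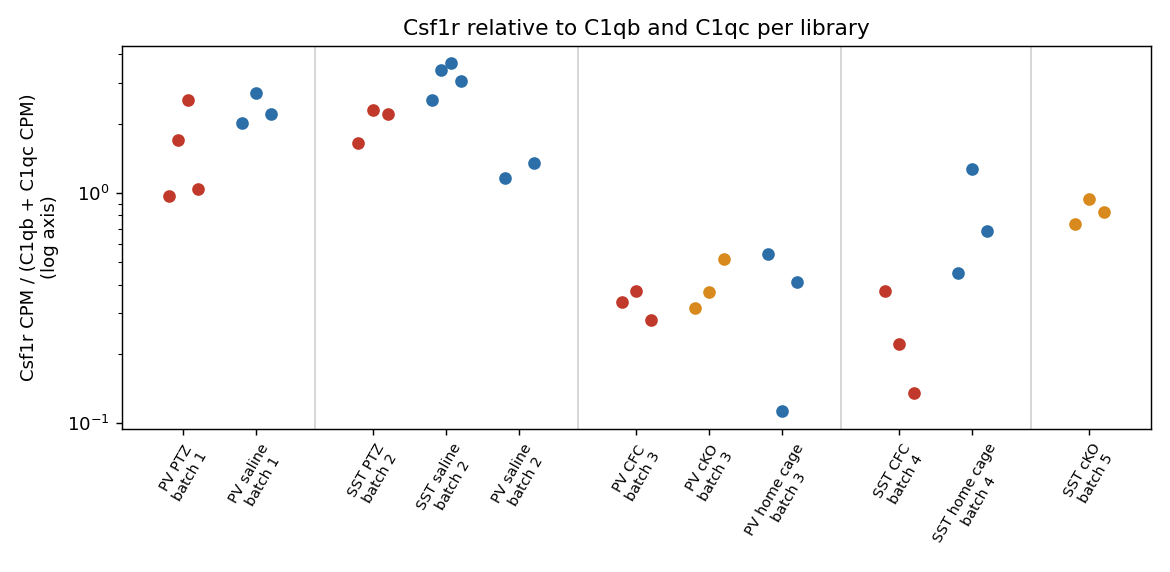
Csf1r CPM over the sum of C1qb and C1qc CPM in each library (log axis), by group and batch. Libraries of batches 1 and 2 lie at 0.975 or above and those of batch 3 at 0.545 or below.

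The members varied together to different degrees. After the mean of each batch was taken off log2(CPM + 1), Ctss had the highest Pearson correlation with the mean of the other members over 34 libraries, at 0.86, followed by Csf1r at 0.82 and Tmem119 at 0.79. Irf8 had 0.54 and Inpp5d 0.44, over the 9 members listed in every table. Of 36 pairs, Tmem119 and Csf1r had the highest correlation, 0.82, and Cx3cr1 and Inpp5d the lowest, 0.22. Within the 7 libraries of batch 1 alone the 45 pairs ran from 0.67 for Cx3cr1 and Inpp5d to 0.98 for P2ry12 and Ctss. These points share library depth and the same few high libraries, so they describe these libraries.

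Among 11327 genes with at least 1 CPM on average in the tables, the genes most like the members' mean over the 34 libraries included Itgam (0.86), Ikzf1 (0.84), Laptm5 (0.83), Abi3 (0.82), P2ry13 (0.79), Lpcat2 (0.78), Havcr2 (0.76) and Olfml3 (0.76). Of these, Itgam, Laptm5, P2ry13 and Olfml3 belong to the list of further microglia markers and Ikzf1 to the myeloid transcription factors. Itgam is an integrin chain of macrophages and P2ry13 a nucleotide receptor related to P2ry12.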

How the data were processed

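Sequencing reads were trimmed with cutadapt 1.18, aligned with STAR 2.5.2a and counted per gene with HTSeq 0.11.0, and DESeq2 is also listed, per the submitters' processing notes, which name the builds mm10 and GRCm39 without saying which table used which. The authors deposited counts per gene for batches 2 to 5 and, for batch 1, a table of expected counts, of which 11.3% of values were not whole and were rounded here. Strand settings are not given in the sources used here. No column of per-sample values was left unused.

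Each batch was analysed alone with R 4.3.3, edgeR 4.0.16 (limma 3.58.1): filterByExpr, TMM scaling, glmQLFit and glmQLFTest on group means, two-sided, with Benjamini-Hochberg adjustment over all genes tested and a threshold of 0.05. The contrasts of responses joined batches 1 and 2, or 3 and 4, on shared genes. DESeq2 1.42.0, RLE size factors, library totals alone, no filter, a replicate block, the compared groups alone and each library left out were alternatives. The tests were checked on simulated counts. Correlations used log2(CPM + 1).

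Library totals ran from 4933110 to 27282912 counts. Floors cover counting error only. Counts of all 37 replicate pairs differed by more than sampling noise (chi-square over its degrees of freedom at least 5.89). Whether replicates came from different animals is not stated in the labels, and the spread behind each p-value may therefore be technical. All members are named, and from each list up to 3 called genes or, with 0 called, up to 2 with the smallest p. Up to 10 genes most like the members over the libraries were also to be named, of which some are not reported here. The members and lists were chosen with earlier results of these data known.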

Additional observations from a re-analysis of the deposited data

Results flagged for a closer look

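In PV libraries after PTZ, 4 of the 10 members had 1 library far from the other three by Dixon's test for 4 libraries. In each case it was replicate 4, with C1qa at 11.6 CPM, C1qc at 44.4 CPM, Ctss at 67.5 CPM and P2ry12 at 49.3 CPM. The other PTZ libraries reached at most 1.92 CPM for C1qa, 7.75 CPM for C1qc, 10.6 CPM for Ctss and 10.5 CPM for P2ry12. Of 21 sets of 4 values tested, over single members and their sums, 4 passed, where chance passes about 1 in 20, and these 4 share 1 library and are not independent.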

How the results depend on the processing

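The median log2 fold change of the members kept its direction under DESeq2, RLE size factors, library totals alone, no filter on low counts, the compared groups alone and the replicate block in all 8 comparisons for which each was run. It ranged, with each library left out, from 0.58 to 2.45 for PV PTZ, from -0.15 to 0.0526 for SST PTZ, from 0.58 to 1.68 for SST against PV saline, from -0.10 to 0.22 for PV CFC, from 0.31 to 0.63 for the PV Nr4a1 cKO label, from 0.86 to 2.64 for the PTZ response difference, from -0.82 to -0.56 for SST CFC and from -0.67 to -0.41 for the CFC response difference. Members called ranged from 2 to 6 for SST against PV saline, and were 2 with the compared groups alone. Both counts include Irf8, which passed the filter on low counts through the SST saline libraries. Members called were 1 with DESeq2 for PV PTZ.

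Counts of genes called moved far more, for causes that were not tested. DESeq2 called 211 genes for PV PTZ, 38 for SST PTZ, 606 for PV CFC, 665 for the PV Nr4a1 cKO label, 112 for SST CFC, 1 for the PTZ response difference and 223 for the CFC response difference, against edgeR's 4, 17, 0, 21, 6, 0 and 0. Without the filter the counts were 1032 for PV CFC, 1072 for the cKO label, 11 for SST CFC and 708 for the CFC response difference. With the compared groups alone they were 38 for SST PTZ, 2 for PV CFC and 10 for the cKO label, and library totals alone gave 1 for PV CFC. With each library left out they ran from 0 to 14 for PV PTZ, 0 to 1481 for PV CFC, 7 to 1224 for the cKO label, 1 to 37 for SST CFC, 0 to 1 for the PTZ response difference and 0 to 881 for the CFC response difference. The highest counts in batch 3 and for the CFC response difference came without PV home cage replicate 1. Choices made after seeing the data, leaving out both the PTZ and the saline library with the highest member sums or the highest astrocyte sums, gave 11 and 14 genes for PV PTZ.

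Replicate numbers did not pair the libraries: no comparison had every correlation of same-numbered deviations above 0.1, and they ran from -0.232 to 0.352. With the replicate block the genes called were 2 for PV PTZ, 2752 for SST against PV saline, 6 for PV CFC, 41 for the cKO label and 2 for SST CFC, and members called for SST against PV saline were 0. P2ry12 in SST PTZ was -0.0212 with the block and -0.023 with library totals alone.

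Library totals alone turned C1qa under the cKO label to 0.0457 and the CFC response difference of Cx3cr1 to -0.10. They moved the median of all genes to 0.15 for the cKO label and -0.16 for the CFC response difference, and the members' median relative to it stayed at 0.49 and -0.52. Members that changed sign when 1 library was left out were, for SST PTZ, Cx3cr1 (-0.23 to 0.0901), P2ry12 (-0.15 to 0.20) and Tmem119 (-0.19 to 0.0627). For SST against PV saline they were C1qb (-0.29 to 2.48), Ctss (-0.23 to 1.68), Inpp5d (-0.77 to 3.30) and P2ry12 (-0.0473 to 1.95). For PV CFC they were C1qb (-0.35 to 0.39), Cx3cr1 (-1.07 to 0.11) and P2ry12 (-0.12 to 0.80), and for the cKO label C1qa (-0.24 to 0.0902) and Cx3cr1 (-0.66 to 0.53). For SST CFC it was Irf8 (-1.13 to 0.079), and for the CFC response difference C1qb (-0.0558 to 0.70), Cx3cr1 (-0.67 to 0.53) and Irf8 (-0.41 to 0.81).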
